A study of Mus musculus with 6 samples.

Results

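The genes described here encode the junctions that join heart muscle cells end to end, measured in hearts with and without an activated human SRY transgene. They were 10 genes in all. The 3 connexin genes were Gja1, Gja4 and Gja5, the 5 desmosome genes were Dsp, Dsg2, Dsc2, Pkp2 and Jup, and the last 2 were Cdh2 (N-cadherin) and Tjp1 (the scaffold protein ZO-1). They were found by their gene symbol in the array table, which lists 18138 symbols on 25697 probes, and 16 probes belonged to them. Of these probes 14, from 9 genes, were bright enough to be tested, out of 12970 tested probes from 9660 genes. The only gene left untested was Dsc2.

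RNA was taken from hearts of male FVB mice (FVB/N in the methods) at postnatal day 6 (P6), 3 hSRY-ON and 3 hSRY-OFF. The hearts were described as biological triplicates, and their RNA was hybridized to Illumina MouseRef-8 arrays. The hSRY-ON pups carried 1 recombined copy of the Signalox-hSRY transgene at the H11 locus on chromosome 11, in which the ubiquitous CAG promoter drives FLAG-tagged human SRY together with EGFP. The paper places the recombination in the single-cell embryo, by Cre from the oocyte of Ddx4-Cre mothers. It was seen by PCR in the brain, heart and testis of a P6 pup from such a cross. The hSRY-ON animals chosen for the arrays had not inherited the Cre transgene itself. The methods define hSRY-OFF as the same transgene without recombination, where a DsRed2 cassette blocks hSRY, whereas elsewhere the controls are described as littermates with Ddx4-Cre alone or no transgene, and the labels do not say which of these the control hearts were. Because hSRY-ON pups also grow poorly and take little milk, an effect in the heart and an effect of the animal's general state cannot be told apart here. Human SRY itself has no value in what follows, and mouse Sry, represented by 1 probe, was detected on 0 of the 6 arrays.

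Heart muscle cells meet at intercalated discs, where 3 kinds of junction lie side by side. Gap junctions are channels built of connexins that carry current from cell to cell, desmosomes anchor the intermediate filaments, and adherens junctions anchor the actin of the last sarcomere. The desmosomal cadherins are desmogleins and desmocollins, linked by plakoglobin and plakophilin to desmoplakin, and mutations of these genes in patients are known for arrhythmogenic cardiomyopathy. Connexins are named by their mass, and Cx43 (gene Gja1) is the connexin of working heart muscle, Cx40 (Gja5) that of the atria, the fast conduction system and arterial endothelium, and Cx37 (Gja4) that of endothelium.

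The levels given below are background-corrected, quantile-normalized log2 intensities, and a change is the mean of the hSRY-ON hearts minus the mean of the hSRY-OFF hearts on that scale. A probe is called higher or lower when the adjusted p from limma, taken over all 12970 tested probes, was under 0.05. Mean intensities of the arrays ran from 631.3 in hSRY-OFF replicate 3, the dimmest, to 938.8, and between 47.2% and 51.3% of the probes were above background (detection p-value under 0.05) on each array. Correlations between arrays were 0.983 to 0.992 within a group and 0.94 to 0.96 between groups. All 13 cardiomyocyte marker genes on the array were detected. Over the whole array the groups differed widely, with 27.5% of the tested probes called, 13.8% higher and 13.7% lower in hSRY-ON hearts, and in 45.2% of them the 3 hSRY-ON hearts were all above or all below the 3 controls.

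Against those shares, 8 of the 14 junction probes were called (57.1%), 4 higher and 4 lower, and the groups did not overlap in 12 (85.7%). By the brightest probe of each gene, 4 of the 9 tested genes were called (44.4%), 2 higher and 2 lower. Pkp2 was not among them. The called probes came from 5 genes. Gja5 and Cdh2 were higher, whereas Gja1, Pkp2 and Tjp1 were lower. The remaining 4 tested genes, Gja4, Dsp, Dsg2 and Jup, had no called probe. The median change over the 14 probes was -0.34, against -0.005 over all tested probes, and the median size of change was 0.57 against 0.30. The genes were proposed with results of these hearts known and several share a gene or a complex, so these figures describe the list and no test was made of it. With 3 hearts in each group, an exact two-sided permutation test on any single probe cannot give a p below 0.1, and the adjusted p-values below rest on limma's pooling of the spread over all probes.

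**Figure D1:**
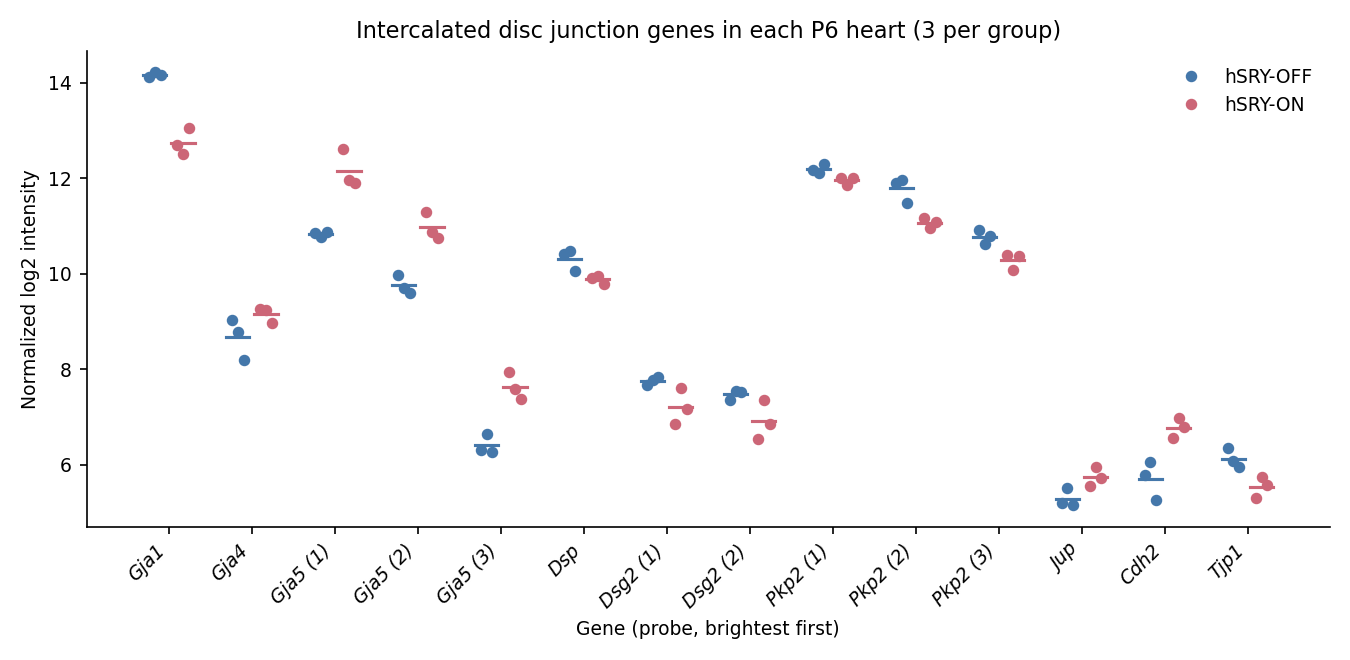
The normalized log2 intensity (vertical axis) of each tested junction probe is plotted for each of the 3 hSRY-OFF (blue) and 3 hSRY-ON (red) hearts, with a bar at each group mean. Gja1 falls from 14.16 to 12.75 and the brightest Gja5 probe rises from 10.84 to 12.16, while the Gja4 groups overlap. Heights of different probes cannot be compared with each other.

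Gja1 and Gja5 showed the largest changes of the 10 genes, and they moved in opposite directions. Gja1 encodes Cx43, the main gap junction protein of the working ventricle. Its log2 level was 14.12, 14.22 and 14.15 in the hSRY-OFF hearts and 12.70, 12.50 and 13.05 in the hSRY-ON hearts. Every hSRY-ON heart lay at least a full log2 unit below every control. The group means were 14.16 ± 0.05 and 12.75 ± 0.28 (SD, n = 3 each), a change of -1.41 (SE 0.16, 95% confidence interval -1.78 to -1.04, limma adjusted p = 0.000953). The level in hSRY-ON hearts was therefore 2.67-fold lower. The fall was already visible in the deposited intensities before any normalization, which were 20988.6, 24340.4 and 15853.7 in hSRY-OFF and 6378.7, 5753.1 and 8067.8 in hSRY-ON hearts. Only 4.13% of all tested probes had a larger change in either direction.

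Gja5, which encodes Cx40, had 3 probes and rose on each of them. The brightest probe read 10.86, 10.76 and 10.88 in hSRY-OFF hearts and 12.61, 11.97 and 11.89 in hSRY-ON hearts. The hSRY-ON hearts were all above the controls, with replicate 1 the highest. The change was 1.32 (SE 0.20, 95% confidence interval 0.86 to 1.78, limma adjusted p = 0.00279), or 2.50-fold. The next probe rose from 9.98, 9.70 and 9.60 to 11.29, 10.88 and 10.76, a change of 1.22 (SE 0.18, limma adjusted p = 0.00255). The dimmest probe rose from 6.32, 6.64 and 6.27 to 7.94, 7.59 and 7.38, a change of 1.23 (SE 0.18, limma adjusted p = 0.0026), which became 0.60 without background correction and was still called. The 3 probes therefore gave 2.50-, 2.33- and 2.34-fold increases, and on each of them hSRY-ON replicate 1 was the highest heart. They measure the same RNA samples and are not replicates of the condition.

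Gja4, which encodes Cx37, was not called. Its level was 9.04, 8.77 and 8.19 in hSRY-OFF hearts and 9.26, 9.25 and 8.97 in hSRY-ON hearts. The lowest hSRY-ON heart lay within the control range. The difference was 0.49 (SE 0.22, limma adjusted p = 0.136) with a 95% confidence interval of -0.02 to 1.01. It was 0.26 without hSRY-OFF replicate 3, the lowest heart, and 0.68 without hSRY-OFF replicate 1.

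The promoters of Gja1 and Gja5 are printed because these connexin genes were called in opposite directions and the transgene encodes a DNA-binding protein. RefSeq's promoter table (GRCm38.p6) held 6 of the 10 genes, namely Gja1, Gja4, Gja5, Dsp, Jup and Tjp1. The window shown is the 250 bases before the annotated gene start, read 5′ to 3′ on the gene's plus strand, at chr10:56377050-56377299 for Gja1 and chr3:97032152-97032401 for Gja5. Capitals mark matches to the searched motifs, of which the Gja5 window held 2 and the Gja1 window none.
Gja1: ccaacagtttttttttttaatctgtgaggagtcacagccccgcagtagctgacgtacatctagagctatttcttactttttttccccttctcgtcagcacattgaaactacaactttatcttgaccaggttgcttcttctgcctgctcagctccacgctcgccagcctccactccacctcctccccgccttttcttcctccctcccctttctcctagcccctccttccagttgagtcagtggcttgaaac
Gja5: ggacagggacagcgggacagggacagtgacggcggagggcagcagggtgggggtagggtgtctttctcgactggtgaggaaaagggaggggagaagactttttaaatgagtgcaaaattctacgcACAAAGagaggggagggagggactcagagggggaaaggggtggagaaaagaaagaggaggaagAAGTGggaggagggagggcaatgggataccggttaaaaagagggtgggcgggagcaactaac

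The searched motifs were AACAAT and ACAAAG, core sequences bound by SRY and SOX proteins, AGGTGT, a site for T-box factors, and AAGTG, a core bound by Nkx2-5, each on both strands. The first was found in 0 of the 6 windows and in 9.42% of 32851 windows of the same length. ACAAAG was found in Gja5 alone, at position -125, and in 16.5% of all windows. AAGTG was also found in Gja5 alone, at position -62, and in 40.7% of all windows. AGGTGT was found in Dsp at -219 and in Jup at -19, and in 11.8% of all windows. The Gja1 window had a GC content of 50% with 6 CpG dinucleotides, and the Gja5 window 56.4% with 7. A match of this kind describes the letters and does not show binding, and a window without a match says nothing of the factor.

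Of the remaining connexins, Gjc1, listed on the array under its older symbol Gja7, encodes Cx45 of the nodes and the early heart. It fell, from 7.74, 7.87 and 7.07 in hSRY-OFF hearts to 5.75, 6.10 and 6.17 in hSRY-ON hearts, and the groups did not overlap. The change was -1.56 (SE 0.23, limma adjusted p = 0.00269). It was -0.70 without background correction and -1.01 with an offset of 50, and was called in both. Of 19 further connexin and pannexin genes, 18 were on the array, 4 were bright enough to test and 0 were called by limma. Over all tested probes 27.5% were called, so 0 of 4 does not show that these genes kept their level. The changes of these 4 genes had a median of 0.27, and Panx1, a pannexin channel gene, stood at 0.41 (adjusted p = 0.0825).

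Transcription factors known to act on connexin genes or on the conduction system were listed as well. Of 15 listed, 13 were tested, 5 were higher, 3 were lower and 5 were not called, with a median change of 0.02. The share called over all tested probes was 27.5%. Tbx5, known to activate Gja5, changed by 1.09 (SE 0.29, limma adjusted p = 0.0282). Its levels were 6.03, 6.0 and 7.11 in hSRY-OFF hearts and 7.39, 7.44 and 7.58 in hSRY-ON hearts, so that hSRY-OFF replicate 3 lay far nearer the hSRY-ON hearts than the other controls did. Nkx2-5, a cardiac homeodomain factor, changed by 0.68 (SE 0.12, adjusted p = 0.00493), and Etv1, Id2 and Gata6 were the other genes called higher. Irx3, known to repress Gja1 and to favor Gja5 in the conduction system, fell by 1.26 (SE 0.20, adjusted p = 0.00336). The other genes called lower were Hand2, at -0.67, and Irx5, at -0.58. Without background correction Tbx5 stood at 0.49, Hand2 at -0.29 and Irx5 at -0.26. Of these 8 calls Irx3 alone stood with each heart left out and under every other processing tried.

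**Figure D2:**
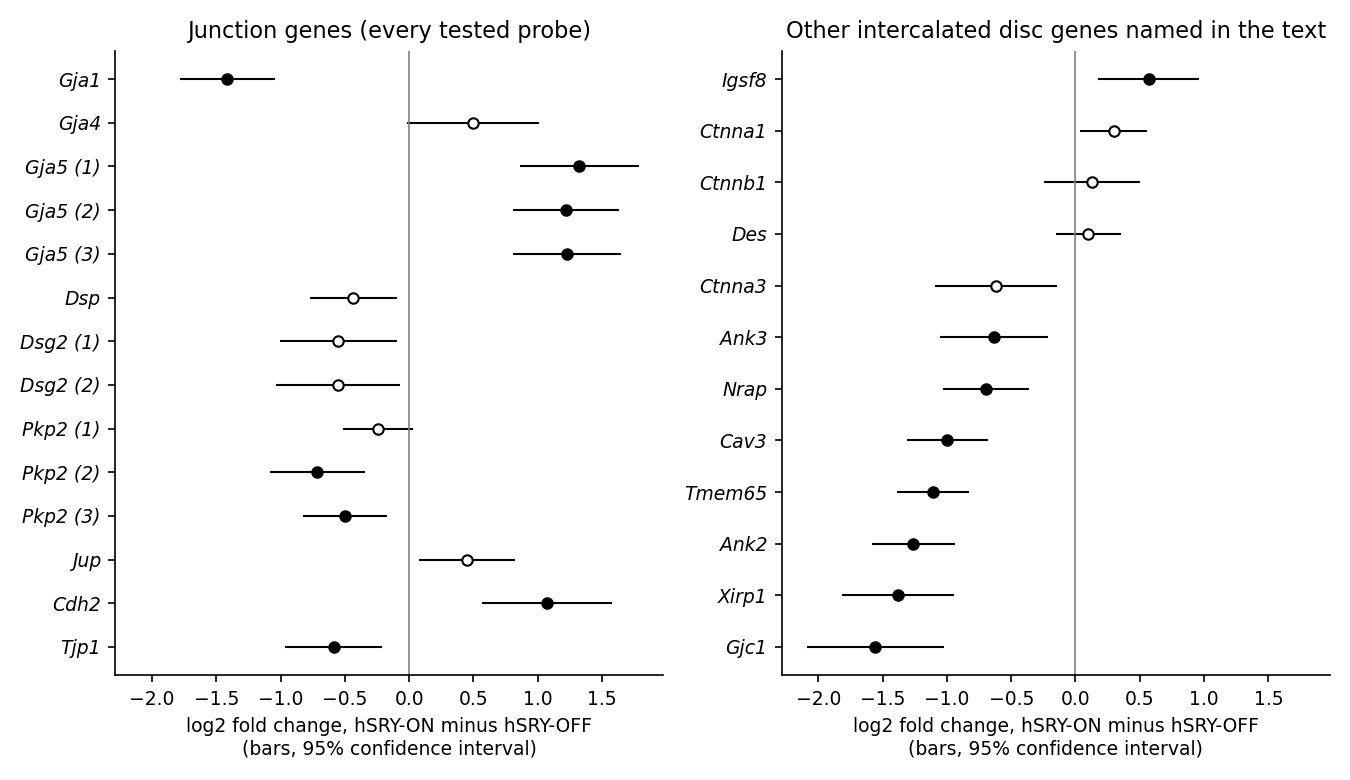
The log2 change, hSRY-ON minus hSRY-OFF, is plotted on the horizontal axis with its 95% confidence interval from limma. Each tested junction probe is on the left. The right side holds the brightest probe of each other intercalated disc gene named in the text, except Actn2. Points are filled where the probe was called and open where it was not. On the left the intervals of Gja1, the 3 Gja5 probes and Cdh2 lie farthest from 0, and those of Gja4 and the brightest Pkp2 probe cross it.

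Of the 7 tested desmosome probes 2 were called, both for Pkp2 and both lower, a share close to the 27.5% of all tested probes. Pkp2 encodes plakophilin 2, which ties the desmosomal cadherins to desmoplakin. Its brightest probe read 12.18, 12.12 and 12.30 in hSRY-OFF hearts and 12.02, 11.86 and 11.997 in hSRY-ON hearts. The groups did not overlap, but the difference of -0.24 (SE 0.12, 95% confidence interval -0.51 to 0.03) was not called (limma adjusted p = 0.166). The next probe read 11.91, 11.97 and 11.49 against 11.18, 10.95 and 11.09, and fell by 0.71 (SE 0.16, limma adjusted p = 0.0141). The dimmest read 10.91, 10.63 and 10.80 against 10.39, 10.08 and 10.37, and changed by -0.50 (SE 0.14, limma adjusted p = 0.0355). On each probe every hSRY-ON heart was below every control, while the sizes differed between probes. The weaker of the called probes was no longer called with any heart but hSRY-OFF replicate 2 left out, the adjusted p then lying between 0.0544 and 0.124, and the stronger was lost without hSRY-OFF replicate 1 (-0.66, adjusted p = 0.056).

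Dsp encodes desmoplakin, the link from the desmosome to the desmin filaments. It read 10.42, 10.48 and 10.06 in hSRY-OFF hearts and 9.90, 9.95 and 9.79 in hSRY-ON hearts. The hSRY-ON hearts all lay below the controls, with hSRY-OFF replicate 3 the nearest to them. The difference was -0.43 (SE 0.15, limma adjusted p = 0.0622) and was not called, although it was called without hSRY-OFF replicate 3 (-0.56, adjusted p = 0.0192) and under 4 other processings.

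Dsg2, the desmoglein of heart muscle, had 3 probes, of which 1 was above background on 0 arrays. The brighter of the others read 7.67, 7.79 and 7.85 in hSRY-OFF hearts and 6.85, 7.62 and 7.18 in hSRY-ON hearts. The groups just failed to meet, since hSRY-ON replicate 2 came close to the lowest control. The difference of -0.55 (SE 0.20, limma adjusted p = 0.0732) was not called. On the dimmer probe, at 7.36, 7.54 and 7.53 against 6.54, 7.37 and 6.87, the groups overlapped through the same hSRY-ON heart (-0.55, SE 0.21, adjusted p = 0.0871). Without hSRY-ON replicate 2 both probes were called, at -0.75 (adjusted p = 0.0176) and -0.77 (adjusted p = 0.0171).

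Jup encodes plakoglobin, shared by desmosomes and adherens junctions, and its probe was near background. It was detected in 1 of 3 control hearts and in all 3 hSRY-ON hearts. The levels were 5.2, 5.53 and 5.16 in hSRY-OFF hearts and 5.56, 5.96 and 5.72 in hSRY-ON hearts, so the hSRY-ON hearts were the higher ones. The difference was 0.45 (SE 0.16, limma adjusted p = 0.0724) and was not called. It was 0.12 without background correction and 0.22 with an offset of 50. The deposited intensities overlapped, at 182.0, 208.0 and 151.2 against 175.4, 194.0 and 178.1. Dsc2, the desmocollin of heart muscle, had 1 probe, above background on 0 of the 6 arrays, so it could not be compared.

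Genes of epithelial junctions were read as a check on tissue other than heart muscle. Of 20 listed, 18 were on the array and 7 were tested. Limma called 1 of the 7, against 27.5% of all tested probes. The desmosome genes of stratified epithelia, Dsg1a, Dsg1b, Dsg1c, Dsg4, Dsc1, Dsc3, Pkp1 and Pkp3, were all below the detection rule. Of those tested, Cldn7 was above background on all 3 arrays of each group, with a change of 0.04. Cdh1 stood at -0.39 (limma adjusted p = 0.179) and Ppl at 0.89 (limma adjusted p = 0.053). The summed level of the 7 was 229 to 250 in the controls and 268 to 367 with hSRY activated. Only Ocln, the tight junction protein occludin, was called, higher in hSRY-ON hearts (limma adjusted p = 0.00829). It was above background on 0 hSRY-OFF arrays and on all 3 hSRY-ON arrays, and its bound was too close to background to give a fold.

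Cdh2 and Tjp1 were both dim, and they moved in opposite directions. Cdh2 encodes N-cadherin, the cadherin of the adherens junction in heart muscle. Its level was 5.79, 6.06 and 5.27 in hSRY-OFF hearts and 6.57, 6.97 and 6.79 in hSRY-ON hearts. The hSRY-ON hearts were all higher, and the change was 1.07 (SE 0.22, 95% confidence interval 0.57 to 1.57, limma adjusted p = 0.00961), or 2.10-fold. The probe was above background on 2 of 3 hSRY-OFF arrays and all 3 hSRY-ON arrays. Its deposited intensities overlapped between groups, at 206.5, 235.5 and 154.0 against 219.1, 257.3 and 232.8, so the size depends on how the background is removed. The change was 0.38 (adjusted p = 0.012) without background correction and 0.60 (adjusted p = 0.00647) with an offset of 50, and it was called in both.

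Tjp1 encodes ZO-1, which binds the tail of Cx43 at the edge of gap junctions. It read 6.36, 6.08 and 5.96 in hSRY-OFF hearts and 5.32, 5.74 and 5.58 in hSRY-ON hearts, where 2 of 3 arrays were above background. The hSRY-ON hearts were all lower, and the change was -0.59 (SE 0.16, 95% confidence interval -0.96 to -0.21, limma adjusted p = 0.0323). This call was not firm. It was lost under 5 other processings, at -0.18 without background correction (adjusted p = 0.128), and also without any one of the hSRY-OFF replicates 1 and 2 and the hSRY-ON replicates 1 and 3.

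**Figure D3:**
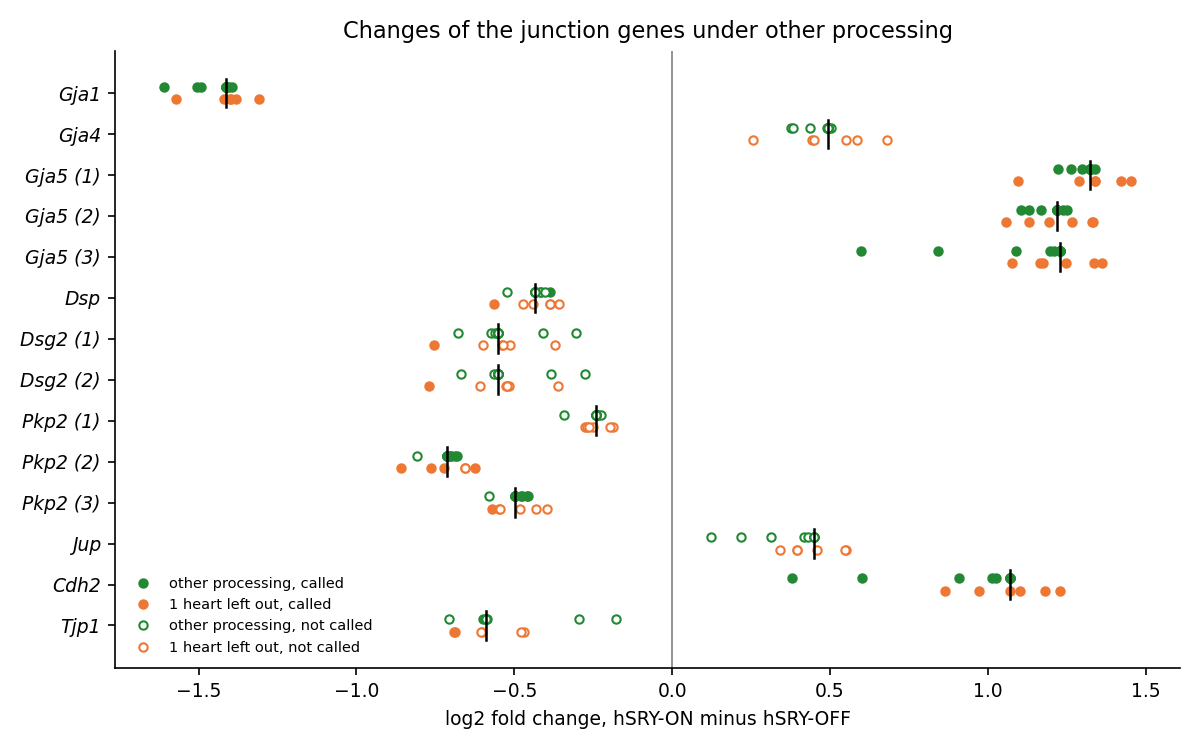
The log2 change of each junction probe is replotted under the other processings (green) and with 1 heart left out in turn (orange), filled where the probe was called and open where it was not, with a black bar at the reported value. No point crosses 0. Gja1, the 3 Gja5 probes and Cdh2 stay filled throughout, whereas Dsp, Dsg2, Pkp2 and Tjp1 switch between filled and open.

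Around these genes, 30 other genes were listed with the intercalated disc, not all of them confined to it. Of these, 26 were on the array and 23 were tested. Limma called 8 of them lower, 1 higher and 14 in neither direction, with a median change of -0.10. Of all tested probes, 13.7% were called lower and 13.8% higher. Ank2, the ankyrin that holds ion transporters in place, fell by 1.26 (SE 0.14, adjusted p = 0.000886). Its other probes changed by -0.77 (called) and -0.54 (adjusted p = 0.131). Ank3, another ankyrin, changed by -0.63 (SE 0.18, adjusted p = 0.0357) on its brightest probe and by -0.25 on another that was not called.

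Tmem65, a disc membrane protein that binds Cx43, fell by 1.11 (SE 0.12, adjusted p = 0.000877), and Cav3, the muscle caveolin, by 0.996 (SE 0.14, adjusted p = 0.00199). Xirp1, listed as Cmya1, and Nrap, which bind actin where myofibrils end at the disc, fell by 1.38 (SE 0.19, adjusted p = 0.00194) and 0.70 (SE 0.14, adjusted p = 0.0105). With Gjc1, described above, these were 7 of the 8 genes called lower. The gene called higher was Igsf8, an immunoglobulin-family membrane protein, at 0.57 (SE 0.17, adjusted p = 0.0411) and above background on 1 of 3 hSRY-OFF arrays. Its call was lost under 7 other processings and with 4 of the 6 hearts left out, whereas among the lower genes only Ank3 lost its call in any refit.

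The catenins and the other adhesion genes were not called. Ctnnb1 (beta-catenin) changed by 0.13 (adjusted p = 0.597), Ctnna1 (alpha-E-catenin) by 0.30 (adjusted p = 0.0911) and Ctnna3 (alpha-T-catenin) by -0.62 (adjusted p = 0.0575). Des, which encodes the desmin that desmosomes anchor, changed by 0.10 (adjusted p = 0.528). A missed threshold does not show that these genes kept their level. The summed level of the tested genes, on the linear normalized scale, was 78463 to 83920 in the controls and 82464 to 83583 with hSRY activated. That sum is weighted to the brightest probes, Actn2 (mean log2 14.76 in controls and 14.89 in hSRY-ON hearts) and Ctnna1 (14.13 and 14.43). It says little of the dimmer genes that were called lower.

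**Figure D4:**
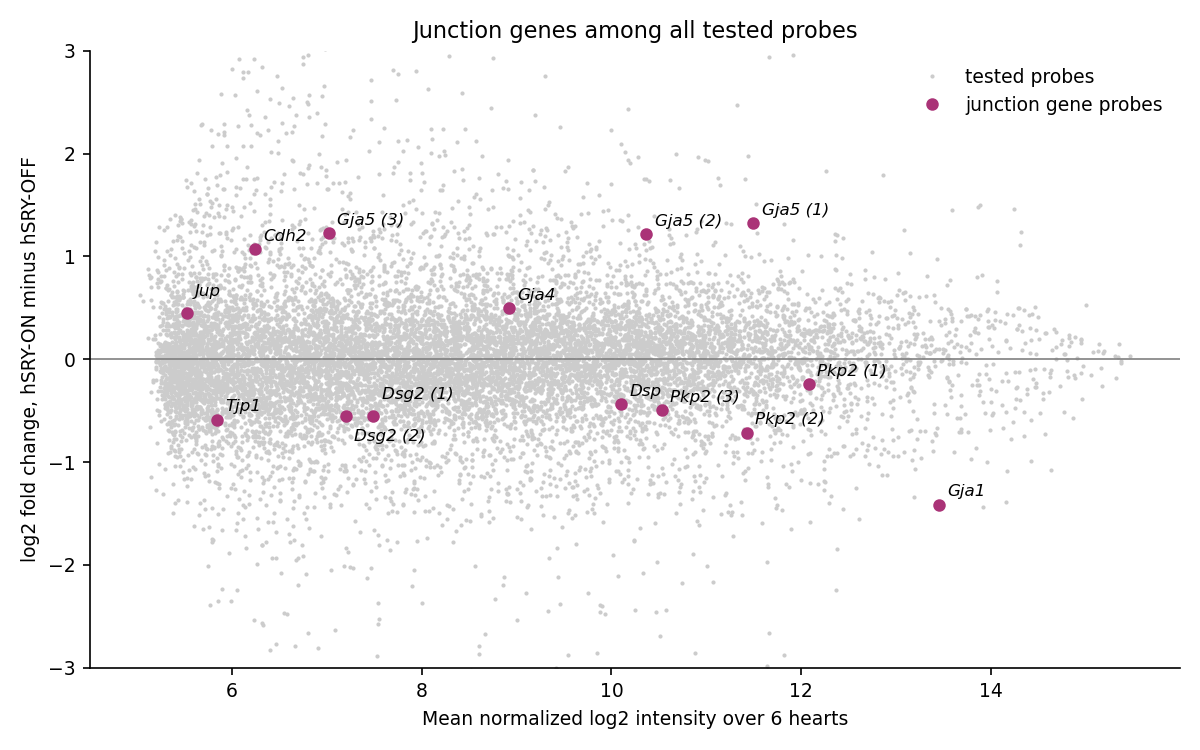
The log2 change, hSRY-ON minus hSRY-OFF (vertical axis), of all 12970 tested probes (gray) is plotted against their mean normalized log2 intensity over the 6 hearts (horizontal axis), with the 14 junction probes in purple and 59 other probes beyond the plotted range. Gja1 lies at the bright end below most probes, the 3 Gja5 probes and Cdh2 lie high, and the desmosome probes lie between -0.71 and 0.45.

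A bulk heart sample cannot separate fewer cells of a type from less of the RNA per cell, so the markers of the cells that carry these junctions were read beside them. Over all tested probes 13.7% were called lower and 13.8% higher. The 13 tested cardiomyocyte markers had 6 lower and 0 higher, with a median of -0.33. Their summed level was 253005 to 266539 in the controls and 217943 to 238991 with hSRY activated. That sum is weighted to the brightest probes, such as Myl2 at 15.34 to 15.42, which lie at the top of the array's scale. Pln (phospholamban) had the largest decrease, -1.47 (SE 0.29, adjusted p = 0.00908). The largest falls were those of Pln, Ldb3, Tnni3 and Ryr2, with levels in hSRY-ON hearts of 0.362, 0.394, 0.457 and 0.469 of the control. The other called markers, Myh6 and Mybpc3, stood at 0.703 and 0.702. The 7 that were not called ran from 0.798 (Csrp3) to 1.081 (Myoz2). Gja1 stood at 0.375 of the control. The 7 tested atrial and conduction markers, of cells rich in Gja5, had 1 higher (Bmp10, 1.43) and 2 lower (largest Myl4, -0.99), with summed levels of 98785 to 101754 and 76371 to 100253. Cpne5 was below the detection rule.

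Endothelial markers were set against the same shares, 13.8% of all tested probes higher and 13.7% lower. The 12 tested endothelial markers had 2 higher and 6 lower, with a median of -0.35. They ran from Cldn5 at -1.48 to Eng at 0.75, and Kdr was below the detection rule. Their summed level in hSRY-ON hearts was 86% of that in controls. Arterial endothelium, which also carries Gja4 and Gja5, had 2 of 10 markers higher and 4 lower, from Cxcr4 at -1.04 to Bmx at 2.06, with a median of -0.41 and summed levels of 8262 to 8690 in the controls and 6754 to 8359 with hSRY activated. Efnb2 and Jag1 were below the detection rule. The arterial sums overlapped between the groups. The part of these cells in the junction results was not tested.

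Markers of other cell types were read against the 27.5% of all tested probes that were called. Of 7 tested mesothelial markers 3 were higher and 1 lower, from Aldh1a2 at -1.38 to Krt18 at 1.97, with summed levels of 2178 to 2611 in the controls and 3211 to 3245 with hSRY activated. Of 4 tested epithelial markers only Krt14 was called (1.05), with summed levels of 388 to 559 and 583 to 923. Of 6 tested leukocyte markers 4 were higher, led by Lyz2 at 1.03, with summed levels of 2832 to 3801 and 6531 to 6892, while Ptprc was below the detection rule. Smooth muscle and pericyte markers had 2 of 9 higher and 2 lower, from Smtn at -1.47 to Tagln at 1.81, and fibroblast markers 2 of 9 higher, led by Fbln2 at 0.83. Red cell markers had 2 of 7 lower, led by Hbb-b1 at -1.29. The shares called in the epithelial, fibroblast and red cell lists were near or below that of the whole array. Of 4 tested brown fat markers 2 were called higher, Adipoq and Ucp1, while Cidea stood at -1.05 (adjusted p = 0.0691), and the summed levels overlapped. Ucp1 was above background on 1 of 3 control arrays, and its groups overlapped, at 4.64, 5.03 and 8.88 against 10.81, 8.80 and 9.94. Cdh2 and Jup are also made outside heart muscle, Cdh2 in fibroblasts and mesothelium and Jup in epithelium and endothelium, and the part of these cells in their changes was not tested.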

How the data were processed

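Total RNA of 6 hearts (3 hSRY-OFF and 3 hSRY-ON, grouped and numbered by their labels) was hybridized to MouseRef-8 arrays. The authors deposited a mean bead intensity for each probe and array, on a linear scale, with no normalization and no background subtracted. Each deposited intensity came with a detection p-value against the negative control beads. The methods name the TCC package without settings, and the submitters' processing notes name limma. The bead summary software and probe build are not given in the sources used here.

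From these values, limma 3.58.1 in R 4.3.3 corrected background (neqc, controls inferred from the detection p-values, offset 16), quantile normalized and took log2. Probes with a detection p-value under 0.05 on at least 3 of 6 arrays were tested with lmFit and eBayes on group alone, two-sided, with Benjamini-Hochberg adjustment over all tested probes. The steps were tested on simulated data. No arrays were identical. The number of arrays limits the precision. The junction genes and all gene lists were chosen with earlier results of these data known. All junction probes were named, from every other list the called genes with the largest rise and fall, and every called disc gene, apart from genes that are not reported here by name. The catenins, Des and other genes outside that rule were named after their values were seen. In list counts and summed levels the brightest probe stood for a gene. Of the listed genes, Gjc1 and Xirp1 were found under older symbols through RefSeq synonyms. Figures used Python 3.11.15 and matplotlib 3.10.9. Alternatives were other background corrections, scalings, probe filters and variance models, a replicate block, and each heart left out.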

Additional observations from a re-analysis of the deposited data

How the results depend on the processing

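Over all alternatives, 219 changes of the junction probes were recomputed, 219 kept their direction and 24 crossed the threshold. Gja1 (-1.61 to -1.31), the Gja5 probes and Cdh2 were called in each refit that gave them a value, and Gja4 and Jup in none. With hearts left out one at a time, the ranges were 0.26 to 0.68 for Gja4, -0.56 to -0.36 for Dsp, -0.75 to -0.37 and -0.77 to -0.36 for the Dsg2 probes, -0.86 to -0.63 and -0.57 to -0.40 for the called Pkp2 probes, and -0.69 to -0.47 for Tjp1. The number of junction probes called lower was 1 to 5, at 1 without hSRY-OFF replicate 1 and 2 without hSRY-ON replicate 1 or 3. Dsp was called without background correction (-0.39), with an offset of 50 (-0.41), with probes detected on all arrays (-0.43) and with an intensity trend (-0.43). Without normalization between arrays, limma called 731 probes higher and 1166 lower over the whole array (38.5% higher against 50.1%), with a median shift of -0.12. There 1 junction probe was called lower, and the Pkp2 probes stood at -0.81 (adjusted p = 0.0517) and -0.58 (adjusted p = 0.215). Tjp1 was not called without background correction (-0.18), with an offset of 50 (-0.30), without normalization (-0.71), with the trend (-0.59) or with the replicate block (-0.59). Leaving out hearts gave 1081 to 1821 probes higher and 1061 to 1848 lower over the whole array, with 1145 and 1061 without hSRY-OFF replicate 1 and 1081 and 1174 without hSRY-ON replicate 1. Of the other disc genes, 2 were called higher without background correction, with TCC-like scaling or with the trend, and 0 without normalization, with median scaling, without a filter or with the replicate block; leaving out hearts gave 0 to 2, at 0 without hSRY-OFF replicate 2 or hSRY-ON replicate 1 or 2. The causes were not tested. Between hearts with the same replicate number, deviations from the group mean had correlations of -0.03, 0.04 and -0.07. The labels name no pairs, and these values cannot show whether such hearts were littermates. The replicate block changed no junction call but that of Tjp1. No value could be given for Cdh2, Jup and Tjp1 where the stricter filters removed them. Signal over background limits Jup, Cdh2 and Tjp1, and Dsc2 has no value.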
